A study of Mus musculus with 12 samples.

Results

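The loci of 8 transcription factors that act in pancreatic endocrine progenitors were examined, namely Neurog3, Pax4, Fev, Neurod1, Insm1, Pax6, Isl1 and Rfx6, out of 21584 protein-coding genes. Each locus was the gene body in the GENCODE annotation of mm39 with 20 kb on either side. DNA methylation was measured by tagmentation-based whole-genome bisulfite sequencing (WGBS), which reads each CpG as methylated or unmethylated. The cells were sorted from islets of Myt1cCre; Ngn3nCre; Rosa26eYFP, InsApple mice of either sex, in which parts of a split Cre recombinase are made under Myt1 and under Neurog3, so that eYFP marks descendants of progenitors that had made both (M+N+), and Apple marks β cells. The groups were eYFP− (M−N+) and eYFP+ (M+N+) β cells at postnatal day 2 (P2), with 2 libraries each, and at day 60 (P60), with 4 libraries each. All groups share these 4 alleles and differ only in eYFP and age, and each library drew on more than 1 sort, with several mice in each. The labels call the reporter eGFP and the cell type islet cells, although the titles name sorted β cells.

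Neurog3 is the basic helix-loop-helix factor that commits progenitor cells to the endocrine fate, and it is made for a short time only. Among the genes that act after it, Pax4 and Fev are also transient, whereas Neurod1, Insm1, Pax6, Isl1 and Rfx6 stay active in mature islet cells. CpG-rich start sites and active enhancers are usually unmethylated, and they appear in WGBS as hypomethylated regions (HMRs). The 3 transient and 5 lasting factors were set side by side below.

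Read counts were deposited for 4 pools, 1 for each age and subtype, so that a methylation level has no replicate error, and 95% Wilson intervals cover counting error only. The mean depth of a CpG was 24.8 reads in the eYFP− and 25.0 in the eYFP+ pool of P2, and 44.7 and 44.4 in those of P60. For single libraries only HMR positions were used, with 57036 to 60871 HMRs at P2 and 38017 to 49741 at P60. The library-name prefixes form 3 sets, of which 1 holds all P2 libraries, so age and this prefix cannot be told apart. Of 254 X-linked HMRs that marked the male P60 libraries, the P2 eYFP− library labelled female had 92.5% and the one labelled male had 13.4%, so these 2 libraries go against their sex labels. All 8 loci are autosomal and no comparison used sex. Within 500 bp of the start site, Ins1 was methylated at 28.3% and 35.1% at P2 and at 7.87% and 5.74% at P60, Ins2 at 12.6% and 20.6% and then at 4.86% and 5.47%, and Iapp at 0.323% to 4.85%. Gcg, Ppy, Cpa1, Ptprc, Cd3e and Cdh5, which mark other cells, were at 54.6% to 87.3%, Sst was at 14.7% to 19.2%, and Prss1 had 1 CpG. The level at the insulin genes thus moved with age as well, and its part in the age differences below was not tested.

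The 5 sequences that follow carry the main contrasts and are taken from GRCm39, 5′ to 3′ on the strand of the gene, with each complete CpG in capitals. The first pair shows how the start sites of Neurog3 and Pax4 differ in CpG content, and the others are HMRs whose methylation was higher at P60. The first is the 250 bp upstream of Neurog3 (chr10:61968612-61968861, plus strand), with 17 CpGs, and the second the 250 bp upstream of Pax4 (chr6:28449353-28449602, minus strand), with 2 CpGs. The third is the central 300 bp of an HMR upstream of Pax4 (chr6:28464689-28464988, minus strand), the fourth a whole HMR upstream of Neurod1 (chr2:79290497-79290736, minus strand), and the last a whole HMR upstream of Pax6 (chr2:105494995-105495076, plus strand). None of the 5 overlaps an annotated exon.
Neurog3 upstream: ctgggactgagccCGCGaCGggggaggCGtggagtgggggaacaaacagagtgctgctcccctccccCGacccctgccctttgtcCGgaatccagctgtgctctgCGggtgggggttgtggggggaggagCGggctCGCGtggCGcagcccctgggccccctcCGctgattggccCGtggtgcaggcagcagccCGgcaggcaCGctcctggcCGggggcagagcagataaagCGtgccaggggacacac
Pax4 upstream: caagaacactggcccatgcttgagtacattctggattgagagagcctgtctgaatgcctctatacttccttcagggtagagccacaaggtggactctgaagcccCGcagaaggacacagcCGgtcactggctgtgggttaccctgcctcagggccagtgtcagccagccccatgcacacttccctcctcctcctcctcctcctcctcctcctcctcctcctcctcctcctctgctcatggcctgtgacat
Pax4 distal HMR: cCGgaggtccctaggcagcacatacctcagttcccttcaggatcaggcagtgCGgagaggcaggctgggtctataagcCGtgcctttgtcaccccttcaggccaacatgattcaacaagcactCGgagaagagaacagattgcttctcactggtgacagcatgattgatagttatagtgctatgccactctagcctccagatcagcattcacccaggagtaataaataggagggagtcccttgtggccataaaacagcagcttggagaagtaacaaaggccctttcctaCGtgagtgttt
Neurod1 distal HMR: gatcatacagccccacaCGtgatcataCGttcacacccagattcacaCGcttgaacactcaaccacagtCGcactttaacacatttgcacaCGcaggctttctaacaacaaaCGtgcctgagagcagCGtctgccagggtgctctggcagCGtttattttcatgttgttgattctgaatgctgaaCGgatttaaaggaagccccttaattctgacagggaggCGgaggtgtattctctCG
Pax6 distal HMR: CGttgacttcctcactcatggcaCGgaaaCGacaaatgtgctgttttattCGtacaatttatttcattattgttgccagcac

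The CpGs of these sequences did not move alike. In the Neurog3 sequence, single CpGs were at 0% to 8% in the P2 pools and at 0% to 9.38% in the P60 pools. In the Pax4 upstream sequence, the CpG at base 105 was at 44.4% in eYFP− and 46.9% in eYFP+ cells at P2 and at 64.7% and 68.8% at P60, and the CpG at base 121 was at 50% and 52% and then at 73.5% and 78.3%. All 5 CpGs of the Pax4 distal sequence had a higher level at P60 in both subtypes, from at most 16.1% at P2 to between 13.8% and 79.6%. The CpG at base 53 went furthest, from 11.5% and 12.8% to 79.6% and 72.3%. All 11 complete CpGs of the Neurod1 sequence were higher at P60 in both subtypes, and so were all 4 of the Pax6 sequence. These HMRs were called higher from the same reads, so the direction of their CpGs was largely fixed by that choice. In the other called HMRs, 17 of 20 CpGs at Fev, 17 of 19 at Neurod1 and 3 of 4 at Isl1 were higher in both subtypes. All were at Neurog3, Insm1, Pax6 and Rfx6. For HMRs over 300 bp these counts cover the central 300 bp. The CpGs of the 5 printed sequences had 13 to 71 reads per pool, so that a single CpG has a wide counting interval, and no single CpG was tested.

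**Figure D1:**
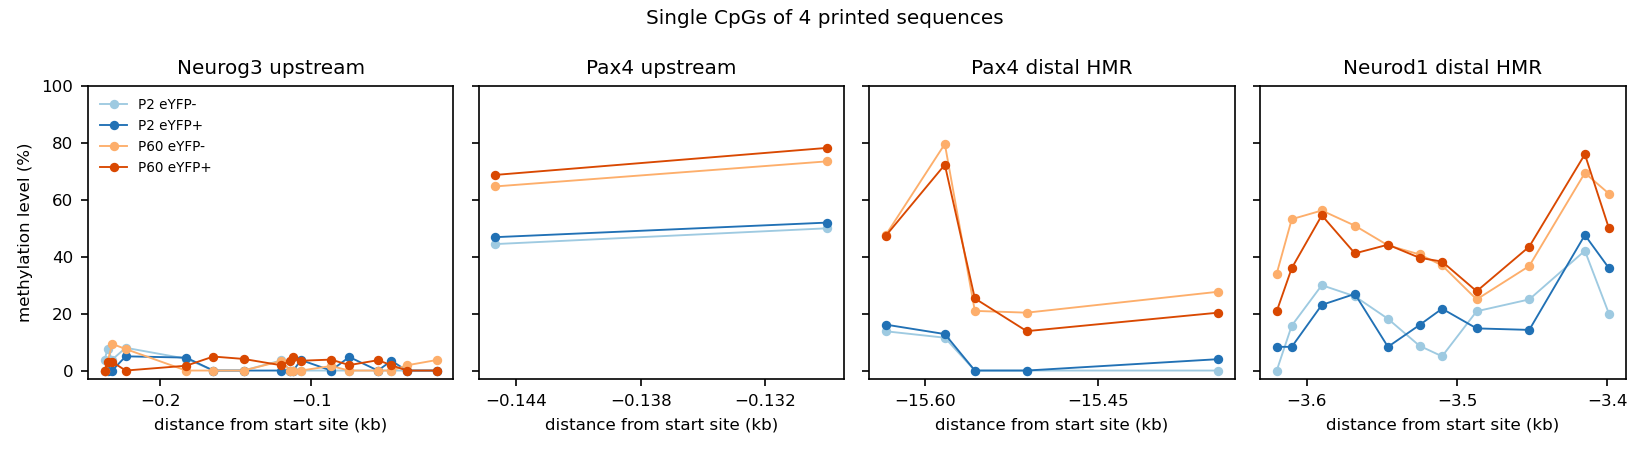
Methylation level (%) of single CpGs against the distance from the start site (kb) in 4 of the printed sequences, with 1 line for each pool. The Neurog3 CpGs stay at or below 9.38% in all 4 pools, whereas the 11 CpGs of the Neurod1 HMR and the 5 of the Pax4 HMR lie higher in the P60 pools.

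Start sites of 7 of the 8 factors were almost unmethylated in all 4 pools. Neurog3 (chr10:61968862-61970766) had 1.99% in eYFP− and 2.16% in eYFP+ cells at P2 over the 43 CpGs within 500 bp of its start site. Its mean over the subtypes was 2.07% at P2 and 3.30% at P60. The means of Fev (chr1:74920668-74924578), Neurod1 (chr2:79282865-79287294), Insm1 (chr2:146063841-146066940), Pax6 (chr2:105499234-105530952), Isl1 (chr13:116434817-116446235) and Rfx6 (chr10:51553852-51606528) lay between 0.486% and 1.58% at P2 and between 0.568% and 1.5% at P60. The median over 20060 genes was 4.37% at P2 and 4.65% at P60, so Neurog3 and Fev, whose transcripts are low in mature β cells, were below the median of all start sites at both ages. Pax4 (chr6:28442333-28449352), a paired-homeodomain repressor that the β and δ lineages require, was the exception. It has 3 CpGs in this interval and was at 49.4% (interval 38.6 to 60.2) and 51.7% at P2 and at 64.8% (57.9 to 71.1) and 67.7% at P60. Its mean difference of 15.8 points exceeded that of 98.4% of the 20060 genes, whose median was -0.162 points, but it rests on 79 to 196 reads per pool and was not tested.

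**Figure D2:**
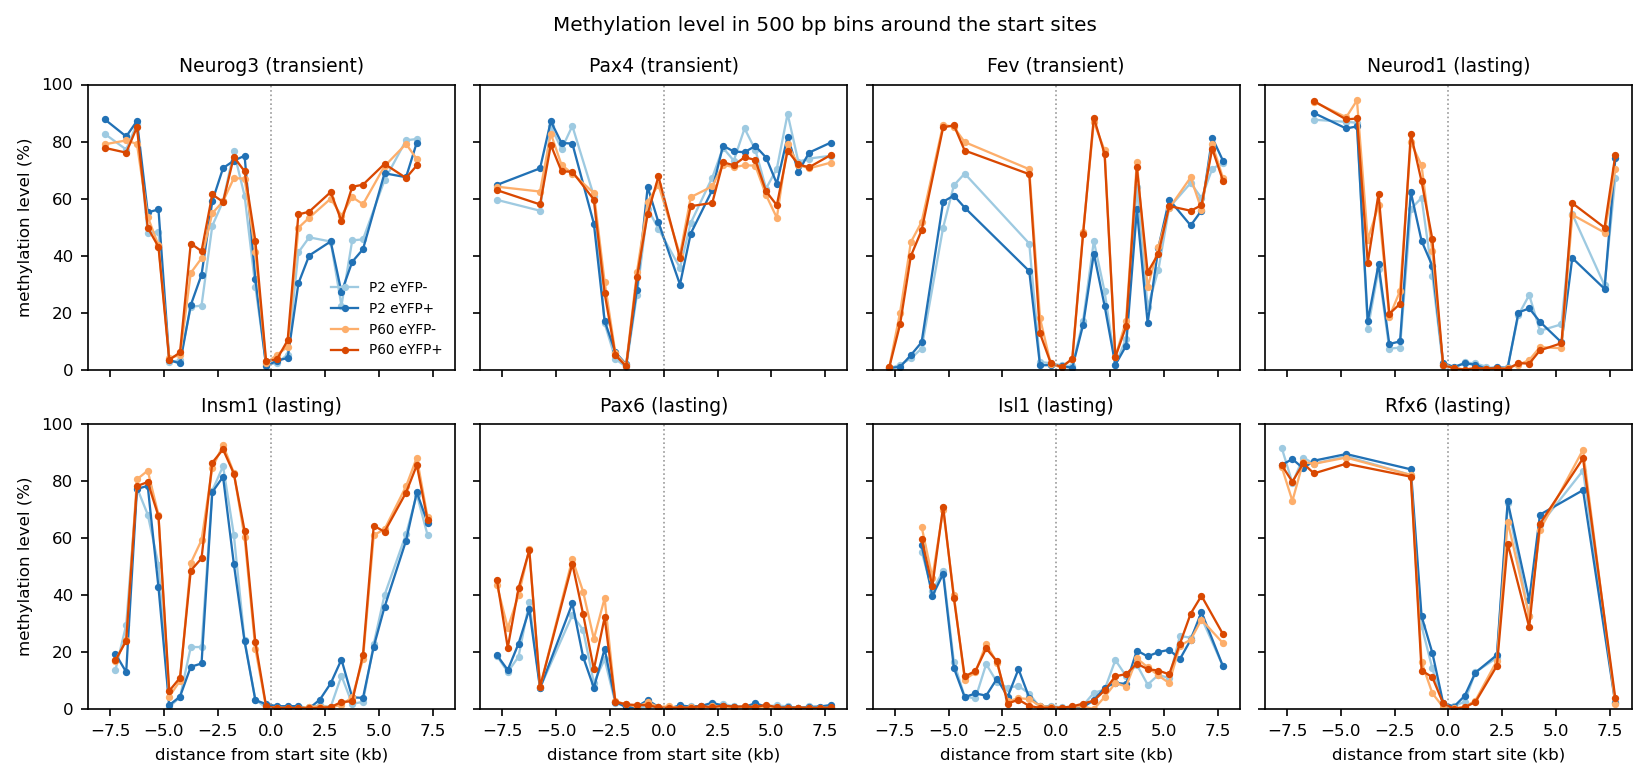
Methylation level (%) of the 4 pools in 500 bp bins against the distance from the start site (kb) for the 8 genes, with bins of at least 3 CpGs shown. Pax6 has a floor that runs on from its start site to the right edge, Pax4 has its minimum upstream of the start site, and the P60 lines lie above the P2 lines on the flanks of Fev, Insm1 and Neurod1.

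HMRs of the 4 pools were merged where they overlap, which gave 86245 HMRs, of which 38 lie in the 8 windows, 13 at transient and 25 at lasting factors. All 38 passed the filter of 3 or more CpGs with a mean depth of 10 or more reads in every pool, as did 83493 of all HMRs. An HMR was called higher or lower at P60 when its level differed by at least 10 percentage points in the same direction in both subtypes, each with an adjusted p under 0.05 (two-sided Fisher's exact test on reads, Benjamini-Hochberg over all HMRs tested). On this rule 10 of the 38 were higher at P60, or 26.3%, against 23.2% of all HMRs tested, so the share at these loci is near the background. None was lower, against 1.73% of all. On the adjusted p alone, 26 of the 38 differed in eYFP− cells, of which 23 were higher and 3 lower at P60, and 25 differed in eYFP+ cells, of which 23 were higher and 2 lower, against 50.9% of all HMRs in either subtype. Each of the 8 loci, with 3 to 7 HMRs, held at least 1 that was higher at P60. In the lists of upstream and downstream factors described below, 10 of 11 and 5 of 8 windows did. The share of all gene windows that did was not counted. The median difference over the 38 was 5.10 points against 2.60 over all HMRs. HMRs found in P2 pools enter this union more often than those of P60 pools. When the HMRs of the P60 pools alone were used, an alternative added after seeing the data, 2 of 34 were higher, at Neurod1 and at Isl1, against 2.40% of all.

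The 10 calls lay away from the members' own start sites. None of the 7 HMRs over a member's start site was called, with a median difference of 2.01 points, and all calls were among the other 31, with a median of 6.09 points. A further 2 HMRs cover the start sites of the neighbours Arf5 and Cryba2, and the latter was called. Counted over any protein-coding start site, 1 of 9 was higher at P60, against 2.21% of 12930 such HMRs in the genome, and over no start site 9 of 29 were, against 27% of 70563. Of the 13 HMRs at transient factors 3 were higher, and of the 25 at lasting factors 7 were, with median differences of 5.72 and 3.68 points. In the HMRs over start sites, those of the transient factors Neurog3 and Fev differed by 4.72 and 5.72 points, and those of the 5 lasting factors by -3.16 to 3.68 points. These values do not overlap, yet the groups hold 2 and 5 genes, and the difference between the classes was not tested. Pax4, the third transient factor, has no HMR over its start site. The median over the 12930 HMRs over any start site was 0.115 points, and how often groups of this size separate was not counted. At the narrower interval of 500 bp on either side, Fev differed by -0.07 points and lay within the lasting factors, which ranged from -0.65 to 0.19.

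**Figure D3:**
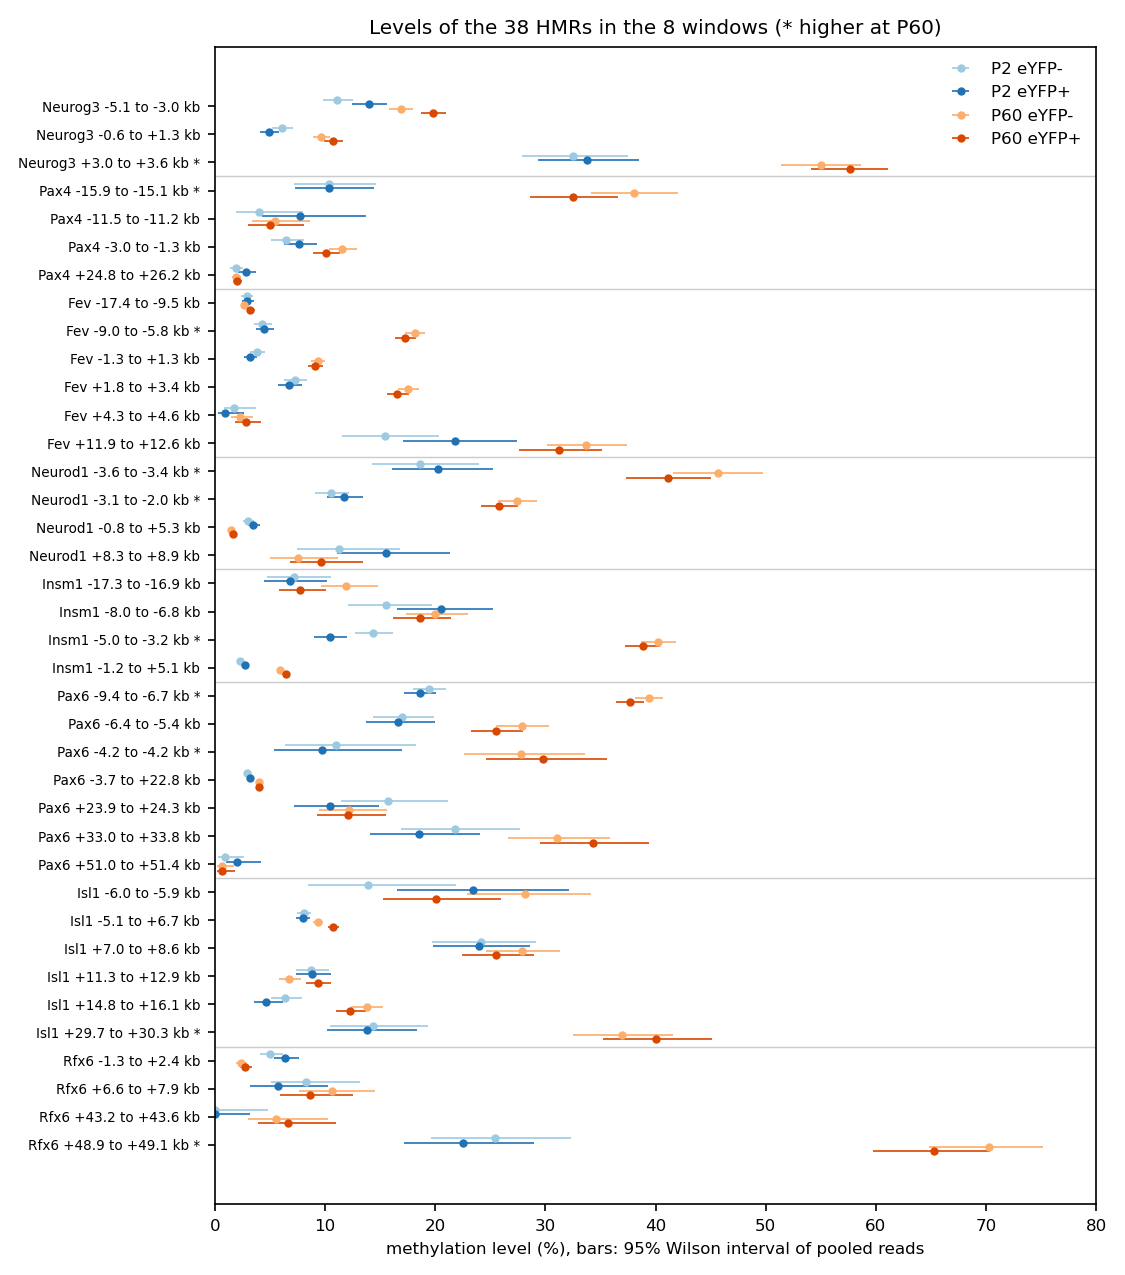
Methylation level (%) of the 38 HMRs in the 4 pools, with 95% Wilson intervals of the pooled reads, ordered by gene and by distance from the start site, where an asterisk marks an HMR higher at P60. The 10 marked HMRs have P60 levels of 17.3% to 70.3%, and none of them lies over the start site of its own member.

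Neurog3 had 3 HMRs. The one over its start site, from -645 to 1348 bp, was at 6.07% in eYFP− and 4.91% in eYFP+ cells at P2 and at 9.67% and 10.7% at P60. An upstream HMR from -5082 to -3008 bp was at 11.1% and 13.9% at P2 and at 16.9% and 19.8% at P60. Both stayed HMRs in all 12 libraries. The HMR downstream of the gene (chr10:61971819-61972507), within the gene Fam241b, was at 32.5% (27.9 to 37.5) and 33.7% (29.3 to 38.5) at P2 and at 55.0% (51.4 to 58.6) and 57.6% (54.1 to 61.1) at P60. It was an HMR in 2 of 4 P2 libraries, 1 of each subtype, and in 0 of 8 P60 libraries. Around Neurog3 the reads per CpG were 1.11 and 1.07 times the pool mean at P2 and 1.36 and 1.38 times at P60, while Fev stood at 1.00 at P2 and at 1.47 and 1.40 at P60. Whether reads of the Ngn3nCre allele lie among those at Neurog3 was not tested.

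The 4 HMRs at Pax4 include none over its start site. The nearest, from -3031 to -1265 bp, was at 6.42% and 7.62% at P2 and at 11.5% and 10.1% at P60 and was present in all libraries. The most distal one (chr6:28464419-28465258), from which the Pax4 distal sequence above was taken, rose from 10.3% (7.21 to 14.6) and 10.4% (7.31 to 14.5) to 38% (34.1 to 42.1) and 32.5% (28.6 to 36.6). All 4 P2 libraries had it and none of the 8 P60 libraries did. The HMR from 24785 to 26203 bp covers the start site of Arf5 and was at 1.89% to 2.81% in the 4 pools.

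Fev encodes an ETS factor that marks an intermediate stage after Neurog3, and its window held 6 HMRs. The HMR that rose (chr1:74930414-74933567) lies from -8989 to -5836 bp and covers the start site of its neighbour Cryba2, and it went from 4.27% and 4.49% at P2 to 18.1% and 17.3% at P60. An HMR over exon 3 had 7.23% and 6.74% at P2 and 17.5% and 16.6% at P60, just under the 10 points required in eYFP+ cells. The HMR over its start site was at 3.83% and 3.19% and then at 9.33% and 9.12%, and the length called as HMR within it was 2357 and 2646 bp at P2 and 1679 and 1689 bp at P60. At 11887 to 12581 bp a further HMR (chr1:74911997-74912691) was at 15.4% and 21.8% at P2 and at 33.7% and 31.2% at P60. That HMR was in all 4 P2 and in 0 of 8 P60 libraries, although its difference in eYFP+ cells was under 10 points. The widest HMR at Fev, 7929 bp long from -17409 to -9481 bp, did not rise in this way. It was at 2.88% and 2.94% at P2 and at 2.64% and 3.22% at P60, and all 4 P2 and all 8 P60 libraries had it.

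Neurod1, the basic helix-loop-helix target of Neurog3 that keeps β cells mature, showed opposite directions within 1 locus. Its start-site HMR, 6105 bp long and with both exons, was at 3.00% and 3.5% at P2 and at 1.47% and 1.69% at P60, a difference of -1.53 and -1.81 points with adjusted p-values under the threshold in both subtypes but far under 10 points in size. Upstream of it, from -3088 to -1956 bp (chr2:79289054-79290186), the level rose from 10.5% and 11.7% to 27.4% and 25.8%. The HMR printed above as Neurod1 distal HMR, from -3638 to -3399 bp, rose from 18.6% (14.3 to 23.9) and 20.3% (16.1 to 25.2) to 45.6% (41.6 to 49.8) and 41.1% (37.3 to 45.1). It was an HMR in 3 of 4 P2 and 0 of 8 P60 libraries.

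Insm1, an intronless zinc-finger factor, had a start-site HMR of 6347 bp with 408 CpGs at 2.32% and 2.73% at P2 and 5.95% and 6.45% at P60. The length called as HMR within it was 6347 bp in each P2 pool and 5145 bp in each P60 pool. The upstream HMR of Insm1 (chr2:146058865-146060598), from -4976 to -3243 bp, rose from 14.3% and 10.4% to 40.3% and 38.8%. The length called as HMR there went from 1704 and 1734 bp in the P2 pools to 261 bp in each P60 pool, while every library kept some of it.

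Pax6, a paired-homeobox factor needed for hormone genes, had the longest HMR of the 8 loci, with 26508 bp from -3748 to 22759 bp that cover exons 1 to 7. That HMR was at 2.93% and 3.20% at P2 and at 4.05% and 3.99% at P60, in 1 piece in each P2 pool and in 3 pieces in each P60 pool. Upstream of it 2 HMRs were called higher, and another, from -6442 to -5383 bp with 17.0% and 16.6% at P2 and 27.9% and 25.5% at P60, was just under the 10 points required in eYFP+ cells. The one from -9406 to -6675 bp went from 19.4% and 18.6% to 39.4% and 37.7%, and the 82 bp HMR printed above went from 11% (6.41 to 18.3) and 9.71% (5.36 to 17.0) to 27.8% (22.6 to 33.6) and 29.8% (24.6 to 35.6). The latter was called in the P2 eYFP+ pool alone, in 2 of 4 P2 libraries and in 0 of 8 P60 libraries, and its adjusted p of 0.00104 in eYFP− cells was the largest of the 10 called HMRs (Fisher's exact test).

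Isl1, a LIM-homeodomain factor, had 6 HMRs. The one over its start site, 11769 bp long with exons 1 to 4, was at 8.08% and 7.97% at P2 and at 9.35% and 10.7% at P60. An HMR downstream of the gene (chr13:116415946-116416549) rose from 14.3% (10.5 to 19.4) and 13.8% (10.2 to 18.3) to 36.9% (32.5 to 41.6) and 40.1% (35.2 to 45.1). It was present in 3 of 4 P2 and 0 of 8 P60 libraries, while the P60 pools still held 413 bp of it.

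Rfx6, a winged-helix factor of the RFX family, had a start-site HMR at 5.04% and 6.41% at P2 and at 2.38% and 2.75% at P60, a difference of -2.66 points in eYFP− and -3.66 in eYFP+ cells, both with an adjusted p under 0.05. Its largest difference, and the largest of the 38 HMRs, was at a 250 bp HMR with 6 CpGs over exon 18 (chr10:51602726-51602975), with 25.4% (19.6 to 32.3) and 22.5% (17.2 to 28.9) at P2 and 70.3% (64.8 to 75.2) and 65.2% (59.7 to 70.4) at P60. That HMR was called in the P2 eYFP+ pool alone and in none of the 12 libraries.

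Bins of 500 bp within 8 kb of the start sites do not depend on where HMRs were called. Of 205 such bins at the 8 loci with at least 3 CpGs and 10 reads per CpG, 43 (21.0%) were at least 10 points higher at P60 in both subtypes, against 5.83% of 477751 bins over all protein-coding genes. At least 10 points lower were 5 bins (2.44%), against 2.82% of all. The bins of 1 locus adjoin each other, and these counts carry no test. Higher bins numbered 11 of 25 at Fev, 10 of 29 at Insm1, 7 of 24 at Neurod1, 6 of 26 at Neurog3, 6 of 30 at Pax6, 2 of 28 at Isl1, 1 of 25 at Pax4 and 0 of 18 at Rfx6. The largest difference, in means of the subtypes, was at Fev, with 24.9% at P2 and 76.3% at P60 in the bin from 2000 to 2500 bp. Past the gene body of Insm1, from 4500 to 5000 bp, the bin was at 22.4% and 62.7%, and downstream of Neurog3, from 3000 to 3500 bp, at 24.8% and 53.0%. The Insm1 bin lies within the merged start-site HMR of that gene. Each of the 3 was at an intermediate level at P2. The lower bins were 2 at Neurod1, 2 at Rfx6 and 1 at Insm1. That is 5 of 129 bins (3.88%) at lasting factors and 0 of 76 at transient ones. Higher bins numbered 25 (19.4%) and 18 (23.7%) of these, and the classes were not tested against each other. The widest lower difference was 3500 to 4000 bp into Neurod1, with 23.8% at P2 and 2.69% at P60 over 4 CpGs. At Rfx6 the bin from -1500 to -1000 bp was at 30.9% and 15.0% over 3 CpGs. Over whole windows, all CpGs included, the level differed by little, for example 52.4% and 53.3% at P2 and 53.7% and 56.0% at P60 for Neurog3, and 25.7% and 26.4% and then 32.3% and 32.6% for Fev, the largest shift of the 8.

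The libraries allow a test over samples. The tests by age took all 12 libraries as independent. Whether eYFP− and eYFP+ libraries of the same age came from the same mice is not stated in the labels, and no test by age paired them. The paper combined sorts for each stage and sex. Whether P60 libraries of the same subtype and labelled sex came from separate DNA samples is not stated. If they did not, they are not independent, and the p-values over libraries by age are too small. An HMR was scored as present in a library where any of its length was called there, and the 4 P2 and 8 P60 libraries were compared (two-sided Fisher's exact test, Benjamini-Hochberg over all HMRs). Of the 38 HMRs, 2 were in a lower share of P60 libraries, the distal HMR of Pax4 and the HMR downstream of Fev, each in 4 of 4 P2 and 0 of 8 P60 libraries (exact p = 0.00202, adjusted p = 0.0373, the smallest the design allows). This share compares with 5.36% of all HMRs. None was in a higher share, against 0.0638% of all, and the 4 HMRs with an unadjusted p under 0.05, against 10.5% of all in either direction, were all in a lower share, the others being the Neurod1 distal HMR and the downstream HMR of Isl1. With any 1 library left out no HMR of the genome can pass, since the smallest p is then too large.

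**Figure D4:**
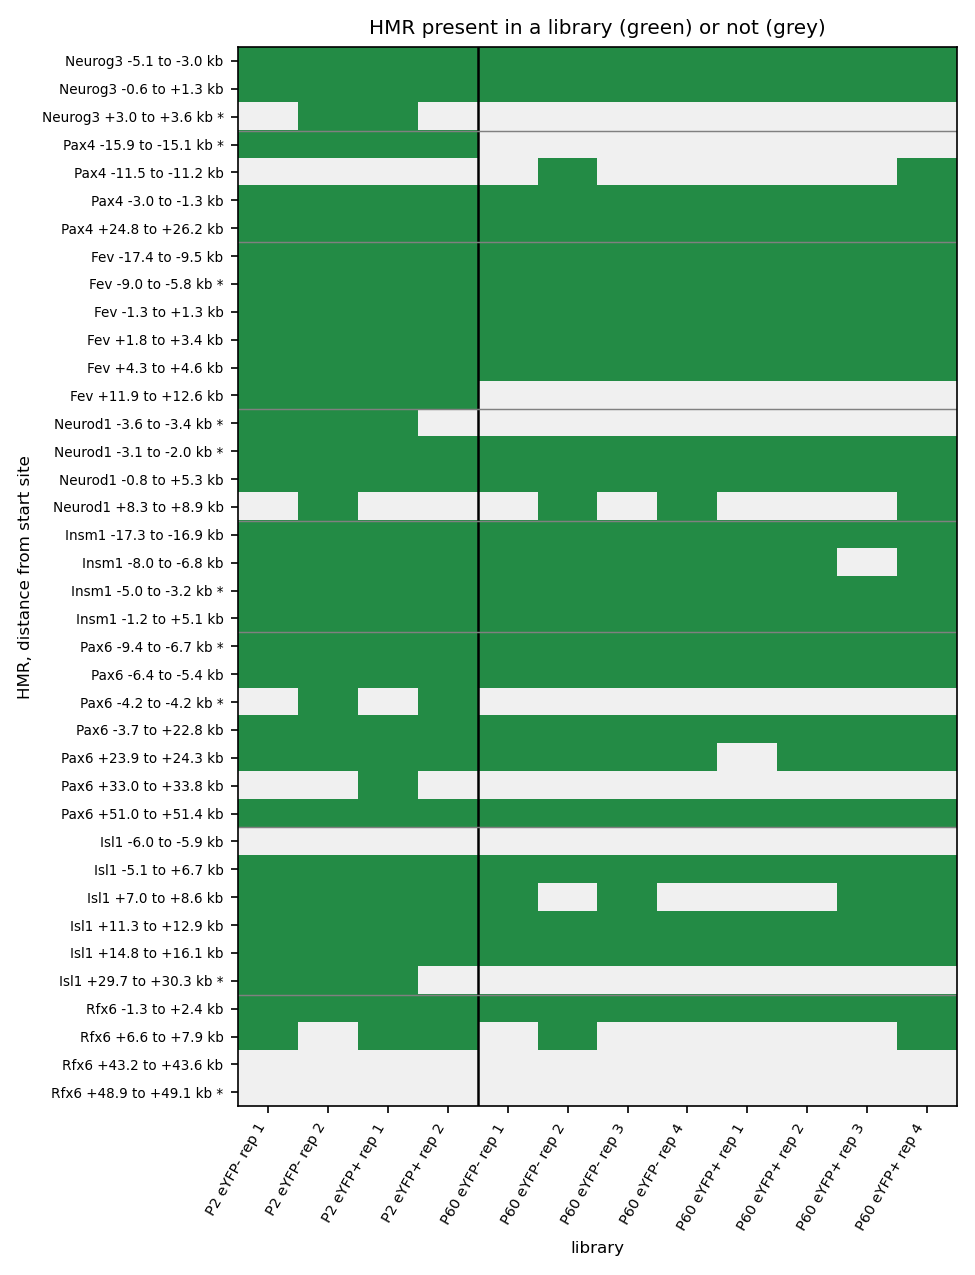
Presence of the 38 HMRs (rows, with their distance from the start site in kb) in the 12 libraries (columns), green where a library has an HMR there, with P2 libraries left of the black line. The HMRs most distal to Pax4 and downstream of Fev fill the 4 P2 columns and none of the 8 P60 columns.

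The share of each window under HMRs was lower at P60 for 7 of the 8 loci (two-sided exact permutation test over the 4 P2 and 8 P60 libraries, Benjamini-Hochberg over 18869 genes), against 52.9% of all gene windows, and higher for none, against 1.17%. Fev had 34.2%, 35.4%, 38.6% and 36.0% of its window under HMRs in the P2 libraries, and 26.6%, 27.0% and 27.9% as the lowest, median and highest of the 8 P60 libraries. All P2 libraries were thus above all P60 libraries, as they were at Pax4, Pax6 and Isl1. The share of all gene windows with such a separation was not counted. Insm1 had 20.4% to 23.7% at P2 and 13.3% to 14.9% at P60, and Neurog3 8.66% to 10.8% and 6.03% to 7.66%, with no overlap either. For Fev, Insm1, Neurog3, Pax4, Pax6 and Isl1 the exact permutation p was 0.00202, the smallest possible, and the adjusted p was 0.00569. Neurod1 went from 16.6% ± 1.41 (SD, n = 4) to 15.0% ± 0.557 (SD, n = 8), with an exact permutation p of 0.00808 and an adjusted p of 0.0178, and its groups overlapped. Rfx6 had 4.80% ± 0.644 and 4.11% ± 0.327 and did not pass (exact permutation p = 0.0303, adjusted p = 0.0550). Neurod1 no longer passed, leaving 6 loci, when eYFP+ replicate 1 of P2 was left out, and Rfx6 passed, giving 8, without eYFP− replicate 2 of P2 or without eYFP+ replicate 1 of P60.

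P60 libraries have less HMR length over the whole genome, 42.7 to 45.8 Mb against 55.5 to 58.6 Mb at P2. Relative to each library's total, 2 loci passed, Insm1 with 18.7% ± 1.54 at P2 (SD, n = 4) and 15.6% ± 0.775 at P60 (SD, n = 8), and Neurod1, which turned to the opposite direction with 14.2% ± 0.882 and 16.3% ± 0.462, with adjusted p-values of 0.0122 and 0.00706 (exact permutation test). On that scale 2424 gene windows were lower and 6388 higher, whereas 9989 were lower and 220 higher without it. The relative shares of Neurog3 (8.34% and 7.24%), Fev (30.9% and 29.6%), Pax4 (6.66% and 6.57%), Pax6 (37.5% and 40.1%), Isl1 (27.5% and 28.9%) and Rfx6 (4.12% and 4.48%) did not pass. The means of the 8 loci were below those at P2 in each of the 2 P60 sets of library names when not scaled.

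**Figure D5:**
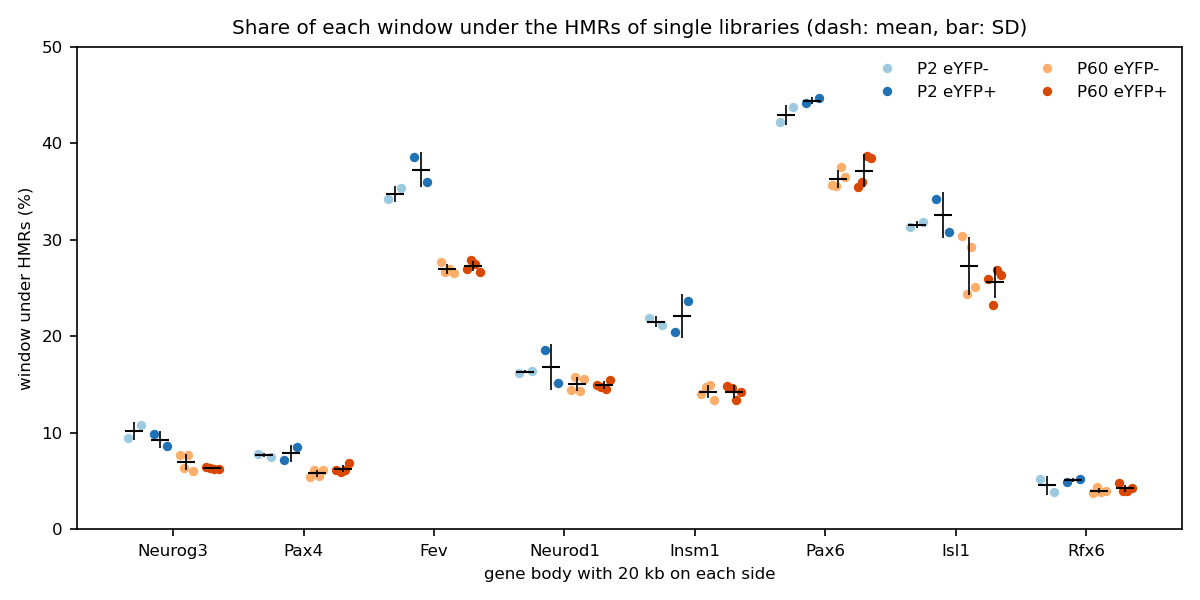
Percent of each window, the gene body with 20 kb on either side, under the HMRs of each library, with a point for every library and the mean and SD of each group of 2 (P2) or 4 (P60). The P60 points of Fev, Insm1, Neurog3, Pax4, Pax6 and Isl1 all lie below their P2 points, and the points of Neurod1 and Rfx6 overlap.

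Between the subtypes no HMR at these loci was called. At P2 none of the 38 HMRs was called different between eYFP+ and eYFP− cells by Fisher's exact test with at least 10 points, against 1.29% of all HMRs, and 2 had an unadjusted p under 0.05, against 14.8% of all. At P60 none was called, against 0.64%, and 6 had an unadjusted p under 0.05, against 13.9% of all. On the adjusted p alone, 1 HMR passed at P2 and 3 at P60, each with a difference under 4 points, against 2.38% and 1.98% of all. At P2 the upstream HMR of Insm1 had 14.3% in eYFP− and 10.4% in eYFP+ cells (Fisher's exact test, adjusted p = 0.0423). At P60 the upstream HMR of Neurog3 was higher in eYFP+ cells by 2.96 points (Fisher's exact test, adjusted p = 0.0267), the start-site HMR of Isl1 by 1.38 points (adjusted p = 0.00954) and the HMR over exon 6 of Isl1 by 2.58 points (adjusted p = 0.0457). The median absolute difference was 1.14 points at P2 and 1.49 points at P60, against 2.06 and 1.60 over all HMRs. The share of the window under HMRs at P60 did not pass for any of the 8 loci between 4 eYFP+ and 4 eYFP− libraries, nor at an unadjusted p under 0.05 (exact permutation test), against 0% of all gene windows with and 1.85% without adjustment. Isl1 had the widest gap, with 25.6% ± 1.59 (SD, n = 4) in eYFP+ and 27.3% ± 2.97 in eYFP− libraries. The change with age did not pass a test of a difference between the subtypes at any of the 38 HMRs (Wald test on the log odds, smallest adjusted p 0.217), whereas it did at 1.13% of all, and 6 had an unadjusted p under 0.05, against 12.9% of all.

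Factors that act before and after these genes were counted in the same way. In the windows of 11 factors that act upstream of or beside Neurog3, such as Sox9, Hes1 and Notch1, 49 of 125 HMRs (39.2%) were higher at P60 and 1, at Notch1, was lower, with a median difference of 8.10 points. Glis3 alone gave 23 of those 49, from 48 HMRs. At 8 factors that act after or beside the members, 10 of 43 HMRs (23.3%) were higher and 2 were lower, 1 at Mafa and 1 at St18, with a median of 3.47 points. St18 had 3 of the higher HMRs, and Nkx2-2 and Runx1t1 had 2 each. Between the subtypes, 1 of these 43 HMRs, at Mafa, was called at P2 and none at P60.

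The start-site profiles, 20 bins of 500 bp in the 4 pools, were compared between genes by Pearson's r as a description. The gene most like Pax6 was Pdx1, with r = 0.94 over 80 values. Those most like Rfx6 and Neurog3 were Gas1 (r = 0.95) and Rab25 (r = 0.91). For Insm1, Neurod1, Fev and Isl1 they were Dbp, Shh, Kdm8 and Tob2, with r of 0.87, 0.84, 0.80 and 0.73. The bins of 1 gene share libraries and CpG density, the values used numbered 68 to 80, and 10821 to 11837 genes were compared.

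The letters CAGATG, an E-box that basic helix-loop-helix dimers can bind, and TGTTTAC, a forkhead motif, were searched on both strands in the central 300 bp of each HMR. CAGATG was found in 8 of the 38 HMRs and in none of the 10 that were higher at P60, against 25.5% of all HMRs tested and 28.6% of those higher at P60. TGTTTAC was found in 1 of the 38 and in none of the 10, against 7.92% of all.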

How the data were processed

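WGBS of sorted β cells was analysed at 8 loci in 12 libraries. The authors trimmed reads with Trim Galore 0.6.6 and cutadapt 1.16, as the submitters' processing notes name them, aligned them by abismal against mm39, and took levels and HMRs from MethPipe, of versions not given in the sources used here. The deposited tables hold counts of methylated and unmethylated reads per CpG for pooled libraries, not normalized. Deposited HMR files hold positions, for pools and libraries. The deposited score and DMR lists are the authors' own comparisons of subtypes and were not used. The pooled columns carry no subtype name. The first was taken as eYFP− and the second as eYFP+. HMRs of each P60 or P2 pool overlapped those of libraries so assigned more (mean Jaccard index 0.791 to 0.843) than those of the other subtype (0.768 to 0.789).

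Genes came from GENCODE M39. All of 84529 listed CpG positions that were checked stood at a CG of GRCm39. Levels are methylated reads over all reads of a region. Tests ran over all HMRs or all protein-coding genes, in Python 3.11.15 with SciPy 1.17.1, and were tested on simulated data. Tests of pooled reads compare the pools, not the mice, and their p-values and intervals cover counting error only. P-values over libraries measure the spread between libraries, each from many mice. They take the libraries as independent, which is not known for P60 libraries of the same subtype and labelled sex. The P60 subtype test was unpaired, with the replicate block as an alternative. Same-numbered P60 libraries of the subtypes, which share the labelled sex, deviated together in HMR presence (r = 0.15, 0.20, 0.31 and 0.14), but so did some with other numbers and the same labelled sex (r = 0.01 to 0.23). At P2 r was 0.01.

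The named genes were the 8 members. The plan was to describe the start-site HMR and up to 3 more a gene, those called first and then the widest. Not all of the widest were described, and the motif search and further HMRs were chosen after values were seen. Members, lists and tests were chosen with earlier results of these data known. Some values are not reported here. Alternatives were the depth, difference and p thresholds, HMR length and unit, the flank, the overlap, the scaling by library, each library left out and the replicate block.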

Additional observations from a re-analysis of the deposited data

How the results depend on the processing

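The 10 of 38 HMRs higher at P60 became 17 of 38 with a difference of 5 points (30% of all HMRs), 6 of 38 with 20 points (10% of all), 17 of 74 with a flank of 50 kb (23.2% of all, so the share did not rise), and 2 of 34 with the HMRs of the P60 pools alone (2.40% of all). Of 87 alternatives over all results, 66 kept the count within 1.5 times, but these include every alternative of the results whose count was 0. Among the others, 6 of 10 alternatives kept it for HMRs higher at P60. For window coverage by age 16 of 17 did, and for HMR presence by age 1 of 17. No HMR was called lower at P60 or different between subtypes under any of the 10 alternatives each. The 7 loci with less HMR coverage became 2 relative to each library's total, 1 of them higher. They ranged from 6 to 8 with 1 library left out. Without P2 eYFP+ replicate 1 or without both P2 eYFP− libraries, Neurod1 no longer passed. Rfx6 passed without P2 eYFP− replicate 2, without P60 eYFP+ replicate 1 or without both P2 eYFP− libraries, the last of these being chosen after seeing the data. With a flank of 50 kb, Rfx6 passed and Pax4 did not. The replicate block left 0 loci different between subtypes at P60, where 4 pairs cannot give an exact p under 0.125, and no other alternative of the 13 gave a call there. The 2 of 38 HMRs in a lower share of P60 libraries became 5 of 38 when at least 50% of an HMR had to be covered (6.14% of all in either direction), 5 of 74 with 50 kb and 1 of 32 with 10 kb (5.42% of all for both). They became 0 with any 1 library left out or without both P2 eYFP− libraries (exact test), where no HMR of the genome passed. The cause of these changes was not tested. Levels of the pools have no replicate error, and age cannot be told apart from the library-name prefix.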
